A study of Homo sapiens with 12 samples.

Results

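The regions enriched for the histone variant H2A.Z were described in Huh7, a hepatocellular carcinoma cell line, with lentiviral VPS72 and with an empty vector. All peaks of the H2A.Z antibody on chromosomes 1 to 22 and X were taken, which gave 182213 regions in the control and 57951 with overexpression. These 240164 regions were part of 1553127 in the 12 peak lists of the series, and coordinates are hg19. Unless stated otherwise, the regions counted are those with a q, the false discovery rate of the peak caller, of 0.05 or less, of which there were 26099 in the control and 14109 with overexpression.

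The cells of both groups carried a FLAG tag inserted into their own VPS72 gene, where its coding part ends, and had been selected with blasticidin as surviving colonies, so each group may rest on few clones. The control cells received a lenti-HA virus, and the overexpression cells a lenti-VPS72-FLAG virus, each kept on the cells for 24 h. The genotype label of the overexpression H2A.Z library reads VPS74, whereas its title names VPS72, and the title was followed. The series title names ATF3, mTORC1 and SREBP1 as steps between VPS72 gain and lipid synthesis, and chromatin immunoprecipitation followed by sequencing was also done for FLAG, H3K4me1, H3K27ac and H2A.Z acetylated on its tail (H2A.Zac). There was 1 H2A.Z library per condition, so no difference between conditions has a replicate check and none was tested.

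H2A.Z replaces the core histone H2A in nucleosomes beside the starts of active and poised genes and at enhancers. The SRCAP and TIP60 complexes exchange it into chromatin, and the H2A.Z-binding subunit of both is VPS72, or YL1. H3K27ac and acetylated H2A.Z mark active promoters and enhancers, and H3K4me1 is typical of enhancers and of the flanks of promoters.

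The gene starts at which H2A.Z was looked for differed in CpG content, and 4 are shown to place the values that follow. The sequences are the 250 bases before the start, 5′ to 3′, from the RefSeq promoters of GRCh38.p14, matched by gene name since the H2A.Z regions are in hg19, and capitals mark CpG dinucleotides. RHEB (chromosome 7, 151519896 to 151520145, minus strand) and EGR1 (chromosome 5, 138465229 to 138465478, plus strand) had H2A.Z within 2 kb in both conditions. SREBF1 (chromosome 17, 17836987 to 17837236, minus strand) and ALB (chromosome 4, 73404037 to 73404286, plus strand) had it in neither at a q of 0.05.
RHEB: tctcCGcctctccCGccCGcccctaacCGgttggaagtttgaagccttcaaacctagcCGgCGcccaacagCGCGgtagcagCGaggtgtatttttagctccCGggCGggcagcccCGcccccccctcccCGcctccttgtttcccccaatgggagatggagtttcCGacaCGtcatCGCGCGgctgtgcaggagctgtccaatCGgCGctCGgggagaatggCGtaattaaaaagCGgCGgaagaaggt
EGR1: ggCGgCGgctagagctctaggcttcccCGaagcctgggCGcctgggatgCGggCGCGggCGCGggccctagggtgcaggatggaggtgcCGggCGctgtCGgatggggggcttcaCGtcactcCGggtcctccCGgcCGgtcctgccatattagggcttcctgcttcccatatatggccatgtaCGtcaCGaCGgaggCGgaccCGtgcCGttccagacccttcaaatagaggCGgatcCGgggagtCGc
SREBF1: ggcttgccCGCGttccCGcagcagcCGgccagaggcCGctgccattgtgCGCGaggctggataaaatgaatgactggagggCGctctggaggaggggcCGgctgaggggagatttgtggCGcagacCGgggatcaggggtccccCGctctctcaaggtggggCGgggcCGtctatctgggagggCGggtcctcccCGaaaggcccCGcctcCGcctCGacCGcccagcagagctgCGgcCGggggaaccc
ALB: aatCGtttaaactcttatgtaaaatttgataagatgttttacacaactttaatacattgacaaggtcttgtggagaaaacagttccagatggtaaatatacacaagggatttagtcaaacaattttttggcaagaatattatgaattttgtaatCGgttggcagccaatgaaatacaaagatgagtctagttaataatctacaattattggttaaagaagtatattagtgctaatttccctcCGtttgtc
RHEB has 24 CpG in this stretch, EGR1 25, SREBF1 22 and ALB 3. Over 34943 RefSeq promoters the median was 11 CpG in these 250 bases, and 52.1% of them had 10 or more. Of the listed genes 38 of 57 matched a promoter, 26 of them with a single one. The 16 of these with H2A.Z in either condition had 11 to 44 CpG (median 22.5), and the 10 with H2A.Z in neither had 1 to 32 (median 20.5). The genes with several promoters were left out of these ranges. Among them, ATF3 and HNF4A had H2A.Z with 4 and 8 CpG in their first listed promoter. H2A.Z of this q was missing at ALB and AFP (1 CpG), and also at the CpG-rich starts of SREBF1, SCD (23 CpG) and PGK1 (32 CpG).

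The 2 libraries differed in depth and in how their p values had been made. The overexpression library held 1.14 times as many reads as the control, as worked out from the fold and p deposited with each peak. A peak was kept from 4 reads at its summit in the control and from 5 with overexpression, and a q of 0.05 was reached from 8 and from 10 reads. Summit height below divides the summit reads by the genome average of the same library, which was 1.397 and 1.64 reads per base pair. The lowest deposited summits were thus at 2.86 and 3.05 times the average.

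H2A.Z regions ranged from the length of a single sequenced fragment to several kb, with like medians in the 2 conditions. The median width was 611 bp (95% interval 604 to 619 bp) in the control and 604 bp (596 to 612 bp) with overexpression. These intervals cover counting error within 1 library each. The upper end differed more, with a 95th percentile of 1704 bp against 1506 bp and a widest region of 5749 bp against 3783 bp. Regions over 2400 bp numbered 208 in the control and 46 with overexpression, which are 0.797% and 0.326% of each list. Together the regions covered 19.5 Mb of the control genome, or 0.642%, and 9.95 Mb with overexpression, or 0.328%. Wider regions were also higher: the median height rose over the width classes from 6.44 to 11.5 times the average in the control and from 6.70 to 11.9 times with overexpression. Across regions, width and height had a Spearman rho of 0.533 in the control (26099 regions) and 0.456 with overexpression (14109 regions), where both come from the same reads.

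Broad H2A.Z regions almost always met acetylated H2A.Z, and the narrowest control regions mostly did not. Of the control regions over 2400 bp, 99.5% (95% Wilson interval 97.3 to 99.9%, n = 208) overlapped H2A.Zac, against 26.3% (25.02 to 27.7%, n = 4239) of those up to 300 bp. With overexpression these shares were 100% (92.3 to 100%, n = 46) and 50.3% (48.03 to 52.6%, n = 1812). The 3 classes between lay in order of width in both conditions, at 57.8, 88.4 and 98.3% in the control and at 78.5, 93.1 and 97.8% with overexpression. H3K27ac followed the same course in the control, from 14.5% at the narrowest regions to 75.5% at the widest. With overexpression it went from 31.8 to 67.8% over the first 4 classes, and the 46 widest regions had 63.04% (48.6 to 75.5%). H2A.Z regions that met none of the 3 histone marks made up 70.7% of the narrowest control class and 1 of the 208 widest, and 38.9% and 0 of 46 with overexpression. All intervals here cover counting error only. A longer region also has more room to meet any mark, and the part of this in the rise with width was not tested.

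**Figure D1:**
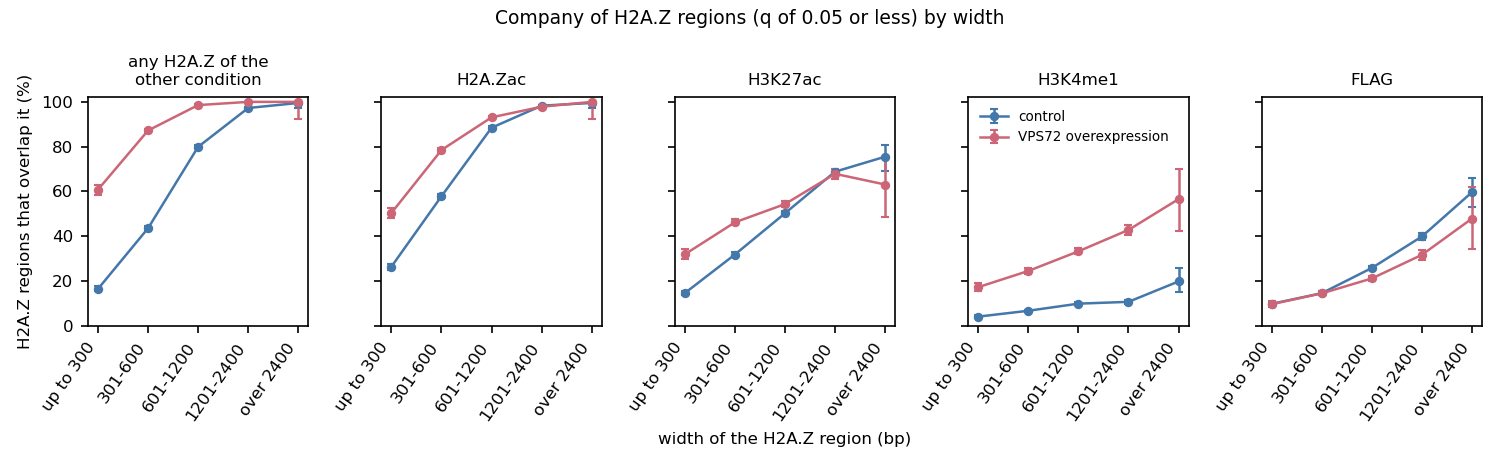
Percentage of H2A.Z regions (q of 0.05 or less) that overlap any deposited H2A.Z region of the other condition, H2A.Zac, H3K27ac, H3K4me1 or FLAG by at least 1 bp, by width of the H2A.Z region in bp; points are 1 library each, bars are Wilson 95% intervals. H2A.Zac reaches 98.3 and 97.8% at 1200 to 2400 bp in the control and with overexpression, while H3K4me1 stays at or below 19.7% in the control and reaches 56.5% with overexpression.

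FLAG, which reads out tagged VPS72, was also most frequent on broad H2A.Z. In the control it met 9.70% (8.84 to 10.6%) of the narrowest H2A.Z regions and 59.6% (52.8 to 66.1%) of the widest. With overexpression it met 9.55% (8.28 to 10.987%) and 47.8% (34.1 to 61.9%). The classes between lay at 14.5, 25.7 and 39.8% in the control and at 14.4, 21.1 and 31.6% with overexpression. From 600 to 1200 bp the intervals were 24.8 to 26.7% against 19.99 to 22.2%, and from 1200 to 2400 bp 38.3 to 41.3% against 29.4 to 33.9%. They cover counting error within 1 library each, so they cannot show whether the conditions differ. The FLAG lists held 68395 and 46307 regions. Over all widths the difference in FLAG share was -3.48 percentage points. It turned to 0.809 with partner lists of equal length and to 8.36 with lists as deposited. A longer region has more room to meet any partner. At the H2A.Z summit alone, 15.6% of control summits and 12.8% of overexpression summits lay inside a FLAG region, which itself covered 1.77 and 1.15% of the genome. This was counted over all widths together, so it cannot tell whether the rise with width is more than a matter of length. A FLAG control in untagged cells was not analysed here.

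At a q of 0.05 and an overlap of 1 bp, H3K4me1 was the partner whose share differed most between conditions. It was also first at a q of 0.01 and with equal H2A.Z list length. H2A.Zac differed most for lists as deposited and with partner lists of equal length. The same held with an overlap of 0.5 of the H2A.Z region (12.6 against 10.4 percentage points for H3K4me1). With the H2A.Z summit inside the partner region it was 12.4 against 9.97 points. At a q of 1e-05 H3K27ac differed most, at -8.87 points against 7.88 for H3K4me1. H3K4me1 met 8.00% (7.68 to 8.34%) of the control H2A.Z regions and 29.1% (28.4 to 29.9%) of those with overexpression. The H3K4me1 lists themselves covered 0.486% of the genome in the control and 2.51% with overexpression. With the 20108 strongest H3K4me1 regions taken in both conditions, the share with overexpression was 9.28%, which is 1.28 percentage points above the control. At control H2A.Z regions that had a deposited region with overexpression, 8.81% met H3K4me1 of the control and 34.5% met H3K4me1 of overexpression (n = 15794), so the same places carried it more often in the second list.

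Over all regions, 69.9% (69.4 to 70.5%) of control H2A.Z and 82.8% (82.2 to 83.4%) of overexpression H2A.Z met H2A.Zac, whose regions covered 1.34 and 0.816% of the genome. For H3K27ac the shares were 41.5% (40.9 to 42.1%) and 50.03% (49.2 to 50.9%), at a coverage of 1.08 and 0.893%. These differences turned round with list length: among the 14109 strongest H2A.Z regions of each condition, H2A.Zac met 87.9% in the control and 82.8% with overexpression. H3K27ac turned in the same way, to 53.4 and 50.03%. Only 7 control and 4 overexpression H2A.Z regions overlapped an input peak. Seen from the other side, 41.9% of the control H2A.Zac regions and 38.8% of those with overexpression met an H2A.Z region, against 8.31 and 5.43% of the FLAG regions.

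H2A.Z met H3K27ac almost nowhere without H2A.Zac. The most frequent combination was H2A.Zac with H3K27ac, at 37.7% (37.1 to 38.3%) of control regions and 38.5% (37.7 to 39.3%) with overexpression. H2A.Zac alone came next in the overexpression list, at 20.3%, and was at 25.4% of the control. Regions with H3K27ac and no H2A.Zac, with or without H3K4me1, numbered 115 and 29 in the control against 96 and 31 with overexpression. H2A.Z with no histone partner made up 28.4% (27.9 to 29.0%) of the control and 11.4% (10.9 to 11.961%) of the overexpression list. These lone regions were narrow, with a median of 328 and 318 bp, and low, with a median of 9 and 11 summit reads, close to the fewest reads that reach a q of 0.05. Of the lone control regions 12.3% (11.6 to 13.1%) had any deposited region with overexpression, against 85.1% (84.3 to 85.8%) of those with H2A.Zac and H3K27ac.

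Of the 4 partners, H2A.Zac had its summit closest to that of H2A.Z. The median distance was 158 bp (153 to 162 bp, 18252 pairs) in the control and 131 bp (126 to 135 bp, 11682 pairs) with overexpression. To the H3K27ac summit it was 226 bp (219 to 236 bp) and 205.5 bp (193 to 214 bp). To the FLAG summit it was 268 bp (256 to 277 bp) and 265 bp (253 to 278 bp). To the H3K4me1 summit it was longest, 379 bp (358 to 403 bp) and 398 bp (386 to 411 bp). The distance between the H2A.Z summits of the 2 conditions, at regions found in both, was 145 bp (142 to 148 bp) when the control list chose the regions and 155 bp (150 to 159 bp) when the overexpression list did. The offset to acetylated H2A.Z was thus of the size by which H2A.Z summits moved from library to library.

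The number of H2A.Z regions with overexpression over that in the control was 0.541 at a q of 0.05, but this ratio depended on how regions were counted. In the overexpression list the number of reads had been multiplied by 0.991 and rounded down before the p was taken, which costs a summit 1 read, and in the control it had not. With p recomputed from whole reads and a limit of 1e-04 in both lists, the control list held 26458 regions and the overexpression list 27540, which is 1.04 times as many. At 1e-06 there were 10824 and 9811, a ratio of 0.906. A limit on summit height in place of q, at 6.09 times the average, gave 26901 and 20398 regions, a ratio of 0.758. At a given p, the summit height needed is lower in the deeper overexpression library, so the limit of 1e-04 was laxer in height there. A q of 0.05 was instead reached from 8 reads in the control and 10 with overexpression, which are 5.73 and 6.09 times the average. Only the height limit was set to the same value in both lists. In whole reads it was met from 9 in the control and 10 with overexpression, which are 6.44 and 6.09 times the average. The direction of the difference in number turned round at the whole-read p of 1e-04 alone.

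Regions found in both conditions had a median width ratio below 1 whichever list chose them. Here the summed width of the overlapping regions in one list was divided by that in the other, with any deposited region accepted in the second. With the control list choosing, the median ratio of overexpression over control was 0.786 (0.779 to 0.792, n = 15794), and 28.5% of regions were wider with overexpression. With the overexpression list choosing, it was 0.747 (0.739 to 0.755, n = 12656), and 25.4% were wider. The exception was the narrowest control class, up to 300 bp, whose counterparts were wider, with a median ratio of 1.53 (1.45 to 1.63, n = 694), while the narrowest overexpression class had a ratio of 0.417 (0.394 to 0.438, n = 1101), so each list chose its own extremes. Regions over 2400 bp had ratios of 0.751 (0.726 to 0.775, n = 207) and 0.955 (0.894 to 1.001, n = 46). Among regions of 20 or more summit reads the ratios were 0.874 (n = 774) and 0.841 (n = 1068). H2A.Zac, whose lists were chosen in the same way, had ratios of 0.790 and 0.748, and H3K27ac of 0.938 and 0.869. FLAG had 0.902 and 0.908, whereas H3K4me1 went the other way, at 1.94 and 1.59. The peak caller ends a region where the p passes its limit, which needs 2.86 times the average in the control list and 3.05 times in the other, and the part of this in the narrower regions was not tested.

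Broad control regions were often broken up in the overexpression list. Of the control regions over 2400 bp with a deposited region in the other list, 67.6% (61.0 to 73.6%, n = 207) met 2 or more separate ones, as did 34.3% (32.8 to 35.7%, n = 4004) of those from 1200 to 2400 bp and 0.432% (0.147 to 1.26%, n = 694) of the narrowest. In the other direction, 32.6% (20.9 to 47.03%, n = 46) of the overexpression regions over 2400 bp met 2 or more control regions, and 20.3% (18.4 to 22.3%, n = 1654) of the next class did. Gaps of at most 300 bp between neighbouring H2A.Z regions made up 5.45% of gaps in the control and 6.80% with overexpression.

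**Figure D2:**
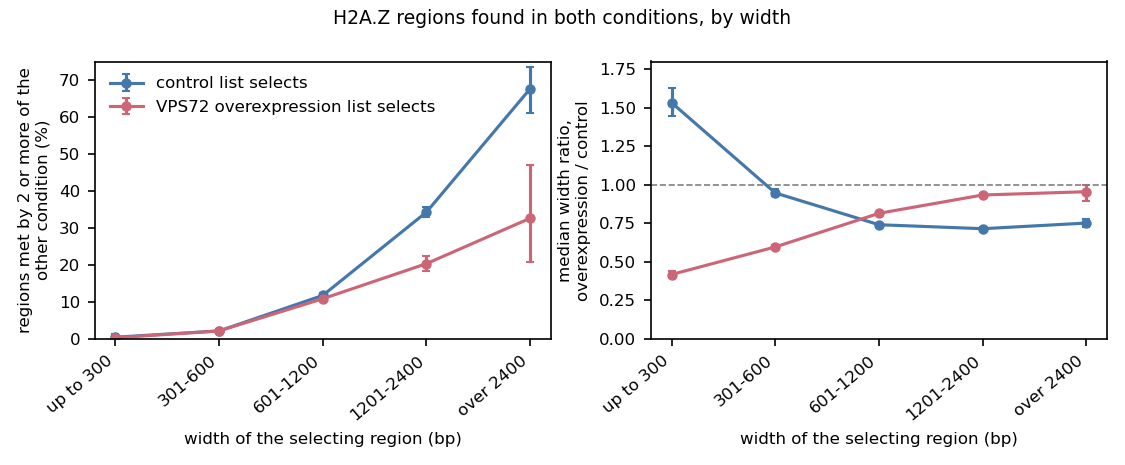
Left, percentage of H2A.Z regions that meet 2 or more deposited regions of the other condition, and right, median ratio of width, overexpression over control, by width in bp of the region in the selecting list; bars are 95% intervals and the dashed line is a ratio of 1. The share in pieces reaches 67.6% for the widest control regions, and the width ratio is below 1 in every class with either selecting list except the narrowest control class, at 1.53.

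Summit height at shared regions gave no direction that held. With the control list choosing, the median ratio of overexpression over control was 0.852, and heights were lower by more than 1.5-fold at 2698 of 15794 regions (17.1%) and higher by as much at 278 (1.76%). With the overexpression list choosing, the median ratio was 0.994 (0.983 to 1.004), with 845 of 12656 regions lower (6.68%) and 1048 higher (8.28%). Among regions of 20 or more reads the ratio was 0.793 with the control list choosing and 1.06 with the overexpression list choosing. Each list thus favoured its own side. H2A.Z regions without H2A.Zac showed this most: their median ratio was 0.757 in the control selection and 1.14 in the overexpression selection, against 0.852 and 0.979 for those with H2A.Zac.

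**Figure D3:**
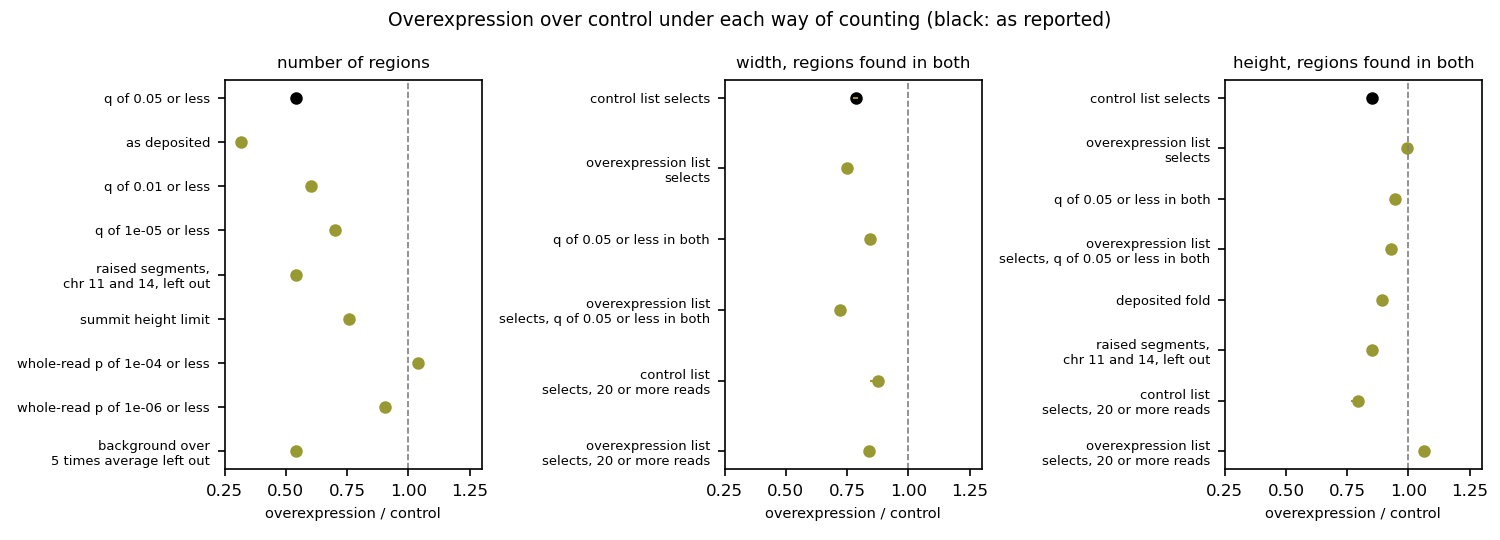
Ratio of overexpression over control for the number of H2A.Z regions, the width of regions found in both and the summit height of regions found in both, under each way of counting; black points are the values as reported and lines are 95% intervals, mostly shorter than the points. The ratio of region number runs from 0.318 to 1.04 and that of height from 0.793 to 1.06, and that of width from 0.720 to 0.874.

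Control H2A.Z regions with no deposited region in the other list numbered 10305, with a median width of 357 bp and 9 reads, against 854 bp and 11 reads for the 15794 that were found. H2A.Zac of the control met 33.8% of the former and 93.5% of the latter. The 1453 overexpression regions with no control region had a median width of 304 bp, and 27.8% (25.6 to 30.2%) met H2A.Zac of overexpression. The regions seen in 1 condition were thus mainly narrow, low and without H2A.Zac of their own condition. Broad regions were seen in both: 99.5% of the control regions over 2400 bp and all 46 of those with overexpression had a counterpart.

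The H2A.Z regions of highest −log10 q were shared between the conditions and met H2A.Zac, and 9 of the 10 were at least 1402 bp wide. The other, at 15q13.1 (chromosome 15, 28833905 to 28834555), was 651 bp wide with 38 reads in the overexpression list and 21 in the control. In the control the first was at 2q13 (chromosome 2, 114340719 to 114342170), 1452 bp wide, with 63 reads and a fold of 11.1, and it had 47 reads with overexpression. A region at Xq23 (chromosome X, 115003337 to 115005383) had 77 reads in the control and 83 with overexpression, where it was the first in the list. The third in the control, at 11q12.1 (chromosome 11, 57334206 to 57336284), spans the start of UBE2L6, which encodes a conjugating enzyme for the ubiquitin-like protein ISG15, with 53 and 47 reads. The other 2 in the control were at 11q13.2 and 11q12.3, and 3 of the first 5 with overexpression were at 11q13.2. All 10 overlapped H2A.Zac and H3K27ac of their own condition. Of these 10, 5 lay in one of 9 bins of 1 Mb on chromosomes 11 and 14 where the local background was at least 2 times the average in both libraries, and these bins held 1.25% of the control and 1.44% of the overexpression regions.

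The widest regions stood at genes for transcription factors of development and at the cyclin gene CCND1. In the control the widest, 5749 bp at 11p13 (chromosome 11, 31830314 to 31836062), had 21 summit reads, and 5083 bp of H2A.Z in 2 regions with 20 reads lay there with overexpression. The next, 5044 bp at 1p22.1 (chromosome 1, 92947835 to 92952878), covers the start of GFI1, a zinc finger repressor of blood cell development, with 13 reads in the control and 18 with overexpression. With overexpression the widest was 3783 bp at 11q13.3 (chromosome 11, 69450807 to 69454589), upstream of CCND1 with its near edge within 2 kb of the start, with 31 reads against 27 in a control region of 4257 bp. BBX, which encodes an HMG-box factor, had a region of 3750 bp at its start at 3q13.12 (chromosome 3, 107241199 to 107244948), against 3802 bp in the control. SIX4, a homeobox gene, had one of 3631 bp at 14q23.1 (chromosome 14, 61187934 to 61191564), against 3760 bp. UBE2L6, GFI1, BBX and SIX4 were named after their regions had been seen. All 10 widest regions overlapped H2A.Zac, and 9 of them overlapped a FLAG region of q 0.05 or less.

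The HOX clusters, arrays of homeobox genes that set position along the body, differed in H2A.Z among themselves. HOXA held 19 regions over 21.97% of its window in the control and 18 over 15.9% with overexpression, and HOXC held 11 in both, over 11.5 and 8.96%. HOXD held 10 and 6 regions, over 6.59 and 4.63%. HOXB held 3 regions over 0.780% of its window in the control and 0 with overexpression. In HOXA, 18 of 19 control regions overlapped H2A.Zac and 17 H3K27ac, whereas in HOXD 7 of 10 overlapped H2A.Zac and 2 H3K27ac. FLAG met 8 of the 19 HOXA regions, 4 of the 11 HOXC regions and 7 of the 10 HOXD regions in the control, against 4 of 18, 1 of 11 and 2 of 6 with overexpression.

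The highest summits, looked up after the values had been seen, were of another kind. The 5 highest regions of each list reached 131 to 235 times the control average and 101 to 219 times that of the overexpression library, and they were 223 to 396 bp wide and lay in bands beside centromeres, where satellite repeats lie. The local background there was 58.4 to 173 times the average, the folds were 1.24 to 2.23, and 8 of the 10 overlapped an input peak. The 3 strongest regions of each list with no counterpart in the other also had a high local background, at 32.6 to 58.4 times the average. Among them only a control region at 5q11.1 (chromosome 5, 49437230 to 49437448) overlapped an input peak. Their folds reached 2.45, and the overexpression region at Xq11.1 overlapped H2A.Zac. The next strongest without a counterpart were, in the control, at 1p34.3 (chromosome 1, 40042388 to 40043174) with 21 reads and 19p13.3 (chromosome 19, 2900010 to 2900693) with 19 reads. With overexpression they were at 5q35.2 (chromosome 5, 175460579 to 175460921) with 21 reads and 13q14.11 (chromosome 13, 40229305 to 40229752) with 16 reads. All 4 overlapped H2A.Zac of their own condition.

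H2A.Z was densest on chromosome 19, with 26.7 regions per Mb in the control and 15.2 with overexpression, and sparsest on chromosome X, with 2.17 and 1.07. The ratio of overexpression over control ran from 0.406 on chromosome 21 to 0.587 on chromosome 1. By Giemsa stain, which darkens gene-poor bands, the unstained bands (gneg) had 11.4 and 6.40 regions per Mb and a ratio of 0.562. The lightest of the stained bands (gpos25) had 13.8 and 8.13 and a ratio of 0.589, and the darkest (gpos100) had 4.35 and 2.00 and a ratio of 0.460. The ratio was not in order of staining between these, at 0.492 in gpos50 and 0.521 in gpos75. The lowest ratio, 0.348, was in the variable heterochromatic bands (gvar), with 227 and 79 regions.

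Gene starts were described for 57 genes in 9 groups, with an H2A.Z region counted where it came within 2 kb. In the control 24 of the 57 genes (42.1%) had one, and with overexpression 20 (35.1%), of which 14 were shared. Starts were placed in hg19 to about 1 kb. Reads and height at a gene are those of its region of highest −log10 q within 2 kb, taken in each condition on its own. Among the genes described below, the regions of control and overexpression did not overlap at RHEB, ACLY, DDIT3, FOXA1, H2AZ2 and ANP32E. Their values are thus from separate places. Some 3.71% and 1.98% of the genome lay within 2 kb of such a region. Of 36 protein-coding genes of a packaged hg19 annotation sample, which were not chosen by function, 17 (47.2%) and 13 (36.1%) had H2A.Z, so the share over the list was near this background. Any deposited H2A.Z region was within 2 kb of 45 genes in the control and 37 with overexpression, and H3K27ac was at 49 and 48 genes, H2A.Zac at 46 and 42, H3K4me1 at 15 and 39 and FLAG at 16 and 11. The count turned round with the 14109 strongest regions of each list, to 18 genes in the control and 20 with overexpression.

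Among 9 genes of secreted liver proteins, H2A.Z was at 1 in the control and 0 under overexpression, beside 47.2 and 36.1% of the annotated sample. H3K27ac was at 8 of the 9 in both conditions and H2A.Zac at 4 and 2. The exception was TF, the iron carrier transferrin, with 10 reads (7.16 times the average) in a region of 354 bp at 3q22.1 (chromosome 3, 133464591 to 133464944) in the control and no deposited region with overexpression. For ALB, which encodes serum albumin, the nearest H2A.Z region lay 96.2 and 96.1 kb away, and for AFP, its fetal relative, 64.2 and 64.1 kb. APOB, the protein of low-density lipoprotein, had a deposited region of 4 reads that missed the q limit in the control and none with overexpression, and APOA1, APOE and SERPINA1 likewise had 6, 8 and 5 reads in the control and none with overexpression. FGB and TTR had no deposited H2A.Z region within 2 kb in either condition, and TTR also lacked H3K27ac. H3K27ac at 8 of 9 is close to its share over the whole list, 49 of 57. The genes of other cell types, among them CD3E (lymphocytes), HBB (red cells), MYOD1 (muscle) and INS (islets), had neither H3K27ac nor H2A.Z of q 0.05 or less in either condition.

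All 7 genes of fatty acid and cholesterol synthesis had H3K27ac in both conditions, as most listed genes did. H2A.Z was at 2 of them in the control and 0 with overexpression, beside 47.2 and 36.1% of the sample genes. ACLY, which makes acetyl-CoA from citrate, had 8 reads in the control (5.73 times the average). With overexpression it had 6 (3.66 times), below the q limit and in a region that did not overlap the control one. INSIG1, which holds the SREBP precursors in the endoplasmic reticulum, had 9 reads in both, which are 6.44 and 5.48 times the average, and passed the limit in the control alone. FASN (fatty acid synthase) and SCD (stearoyl-CoA desaturase) had deposited regions of 5 reads in the control, and no region with overexpression. SREBF2, which encodes SREBP2, had no deposited region in either. With p recomputed from whole reads, at a limit of 1e-04, H2A.Z was at 2 control genes and at 1 with overexpression, beside 24 and 26 of the 57 listed genes.

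Of the axis in the series title, H2A.Z was at MTOR, RHEB and ATF3 in both conditions. It was at RPTOR with overexpression only and at SREBF1 in neither. With a distance of 1 kb ATF3 did not count in the control, and with 5 kb SREBF1 did. At a q of 0.01 RHEB did not count in the control, nor MTOR with overexpression. MTOR, the kinase of mTORC1, had 13 reads in the control (9.30 times the average) and 11 (6.70 times) under overexpression, within regions of 675 and 305 bp. RHEB, the small GTPase that activates mTORC1, had 9 reads (6.44 times) and 14 (8.53 times), in regions that did not overlap. RPTOR, its scaffold subunit, had 7 reads (5.01 times) below the q limit in the control and 11 (6.70 times) with overexpression. SREBF1, which encodes SREBP1, had 6 reads (4.29 times) below the limit in the control and no deposited region with overexpression, although H2A.Zac and H3K27ac were there in both. The nearest H2A.Z region of q 0.05 or less lay 3.36 kb from SREBF1 in the control and 135 kb away with overexpression.

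ATF3, a stress-induced transcription factor gene with a far upstream start, carried H2A.Z along its length. In the control, 4 regions of q 0.05 or less lay between its upstream start and its end, with summits 1.81, 14.7, 43.0 and 43.8 kb from that start and 14, 11, 15 and 19 reads. With overexpression there were also 4, at 1.51, 15.0, 42.5 and 44.1 kb, with 13, 12, 15 and 15 reads. In height the 4 went from 10.0, 7.87, 10.7 and 13.6 times the average to 7.92, 7.31, 9.14 and 9.14 times. All 8 overlapped H2A.Zac. The pair near 43 kb, at 212780982 to 212781872 and 212782122 to 212783517 on chromosome 1 (1q32.3) in the control, met H3K27ac there, and with overexpression the second of the pair did.

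H2A.Z was at 5 of 6 immediate early and stress genes in the control and 4 of 6 under overexpression, beside 42.1 and 35.1% of the whole list. EGR1, a zinc finger factor induced by growth signals, had a region of 3370 bp with 13 reads (9.30 times the average) at 5q31.2 (chromosome 5, 137799122 to 137802491) in the control and one of 1199 bp with 12 reads (7.31 times) with overexpression. FOS had 14 and 11 reads, which are 10.0 and 6.70 times the average. JUN had 10 and 18 reads, 7.16 and 10.97 times, and was the 1 listed gene with H2A.Z in both conditions whose height was more than 1.5-fold higher with overexpression. Over the 14 shared starts, heights were lower by more than 1.5-fold at 0. ASNS, the amino acid response gene for asparagine synthetase, had 14 and 12 reads, with H2A.Zac and no H3K27ac in either condition. DDIT3, the stress factor CHOP, had 11 reads in the control and 8 below the q limit with overexpression, and ATF4 passed in neither with 7 and 10 reads.

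Among H2A.Z and its exchange machinery, 5 of 12 genes had H2A.Z in the control and 6 with overexpression, with 3 in common. The shares over the whole list were 42.1 and 35.1%, and over the annotated sample 47.2 and 36.1%. DMAP1, a subunit of both exchange complexes, had the highest summit, at 1p34.1, with 20 control reads (14.3 times the average) against 18 (10.97 times) with overexpression. RUVBL1, an ATPase of these complexes, had 17 and 15 reads, 12.2 and 9.14 times. At the start of the endogenous VPS72 gene at 1q21.3 there were 9 and 12 reads, 6.44 and 7.31 times, in regions of 667 bp (chromosome 1, 151162016 to 151162682) and 312 bp (151162172 to 151162483). H2AZ2, which encodes the H2A.Z.2 protein, had 14 reads (10.0 times) in the control. With overexpression its strongest region did not overlap that one and had 10 reads (6.09 times), below the limit. H2AZ1, the main H2A.Z gene, passed in neither, with 5 and 8 reads. ACTL6A had 12 reads in a region of 1479 bp in the control and no deposited region with overexpression. EP400, KAT5 and ANP32E, the catalytic subunits of TIP60 and a chaperone that removes H2A.Z, passed with overexpression at 11, 13 and 11 reads and missed the limit in the control at 10, 8 and 7. In height KAT5 went from 5.73 to 7.92 times the average, whereas EP400 was higher in the control, at 7.16 against 6.70 times, over a local background of 2.72 against 1.23 times. ANP32E had 5.01 times in the control and 6.70 times with overexpression, in regions that did not overlap. With p recomputed from whole reads, 5 of the 12 passed 1e-04 in the control list and 9 in the overexpression list, beside 24 and 26 of the 57 listed genes. This limit asked for a lower height with overexpression.

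Of the liver factors, FOXA2 had H2A.Z in both conditions, with 18 and 20 reads (12.9 and 12.2 times the average). HNF4A and FOXA1 passed in the control at 9 and 8 reads and not with overexpression, where both had 7, and CEBPA passed with overexpression at 11 reads against 6. The highest summits of the 57 genes were at CCND1 and FGF19. CCND1, which encodes cyclin D1, had 27 and 31 reads at summits -2759 and -4297 bp from its start, 19.3 and 18.9 times the average. Its neighbour FGF19, a gene of the fibroblast growth factor family, had 23 and 31 reads, 16.5 and 18.9 times. Both lie at 11q13.3, where the local background at these summits was 2.05 to 4.08 times the average. Of the housekeeping genes, GAPDH had H2A.Z in both, at 9 and 10 reads, TBP in the control and RPLP0 with overexpression, and ACTB and PGK1 in neither.

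**Figure D4:**
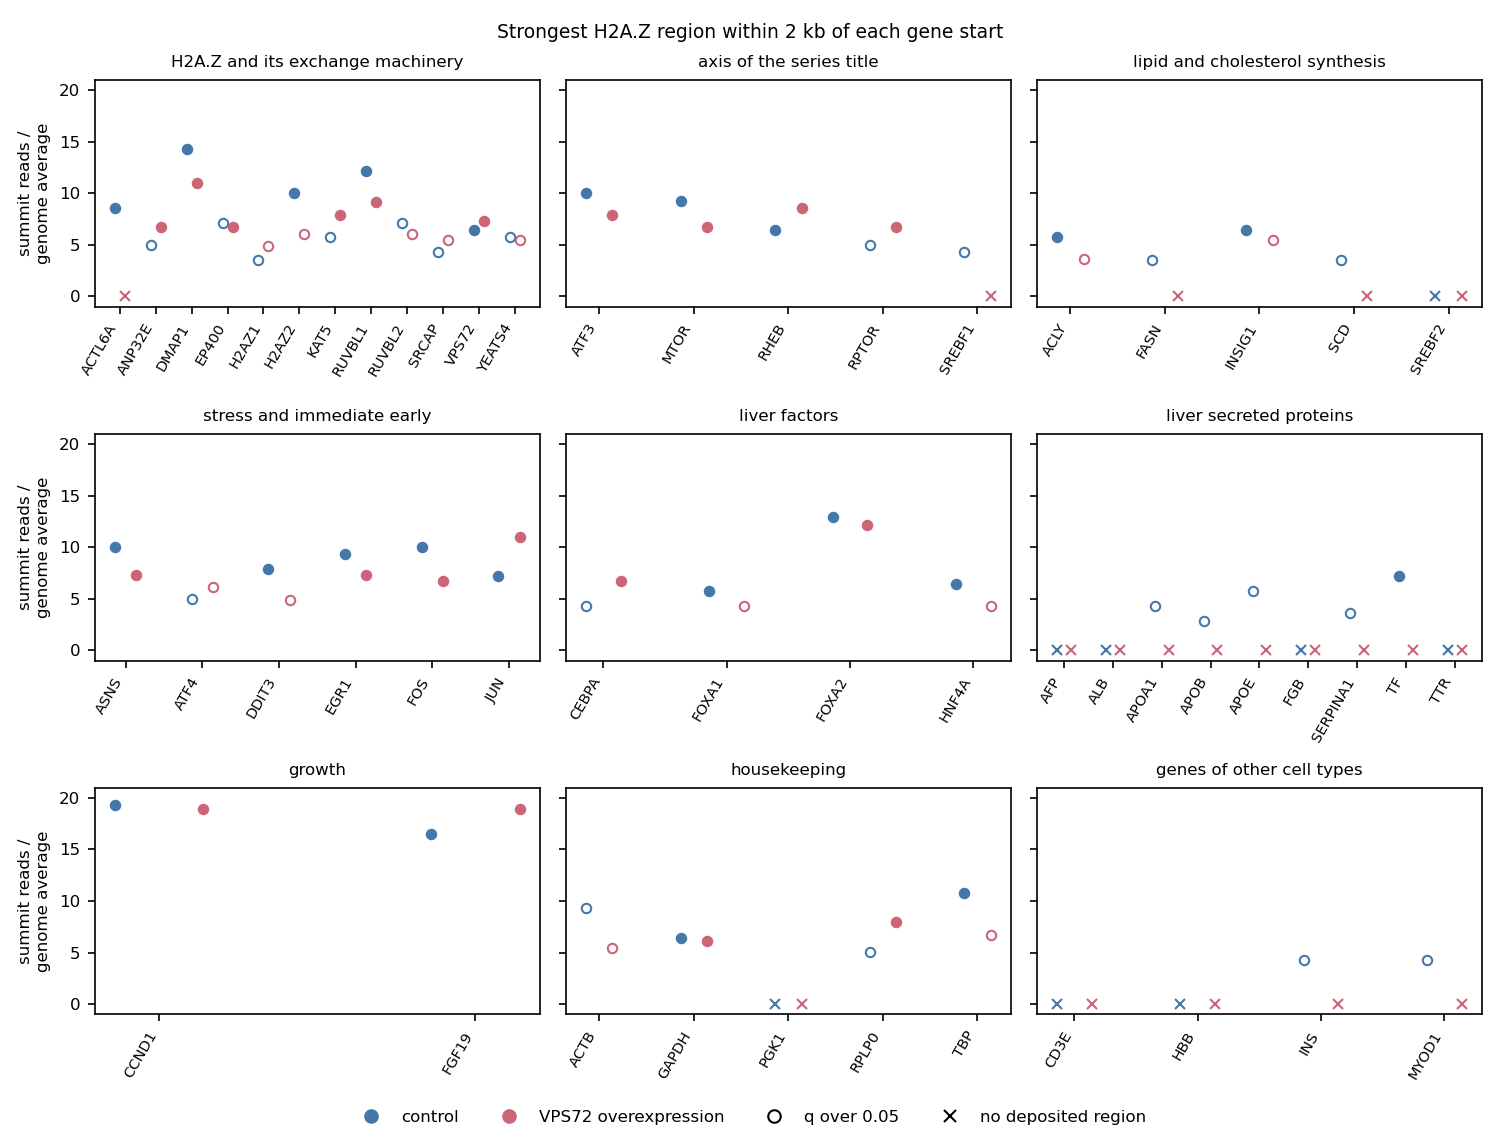
Height of the strongest H2A.Z region within 2 kb of the start of listed genes, as summit reads over the genome average of the library, in 9 groups; filled circles passed a q of 0.05, open circles are deposited regions that did not, and crosses at 0 mark no deposited region, 1 library per condition, with the higher start for HNF4A. CCND1 and FGF19 reach 19.3 and 18.9, and in the panel of liver secreted proteins the 1 filled circle is TF in the control.

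At the 14 starts with H2A.Z in both conditions, the median ratio of height was 0.868 and 4 of the 14 were higher with overexpression. For width, only regions near the start that passed the q limit were summed in each list. This sum was narrower with overexpression at 13 of the 14, with a median ratio of 0.513. Regions below the limit, which asked for a higher summit with overexpression, were left out. The main width ratios at regions found in both lists accepted any deposited region in the second list, so 0.513 is not comparable with them. At RHEB the regions of the conditions did not overlap. The summits lay a median of 498 bp from the start in the control and 480 bp with overexpression, on the same side in both at 11 of the 14.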

How the data were processed

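ChIP-seq peak lists of Huh7 cells, 1 library per antibody and condition, were used, with groups taken from the sample titles. Reads were aligned and peaks called with BWA and MACS2 after FastQC and Trimmomatic, per the submitters' processing notes, without versions, which also name both hg19 and hg38. All peaks lie within hg19 chromosome lengths, so coordinates are hg19 and 1-based. Fold, as deposited by the authors, is a ratio of summit to local background. Their p-value and q-value are deposited as −log10, in the peak caller's format. The lists reach a p of 0.05, and regions with a q of 0.05 or less were used here.

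From fold and p, a whole number of reads could be found at the summit for 100% of the H2A.Z peaks of both libraries, within 0.2% of −log10 p. Regions were compared by overlap of at least 1 bp. Intervals are 95% Wilson intervals, or for medians intervals from order statistics, and they treat regions as independent, which neighbouring regions are not. Read recovery and overlap were tested on simulated data. The 12 summit lists held the same peaks as the peak lists and were not used.

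Gene starts are from general knowledge of hg19, as no full hg19 annotation was used here. A start was kept where its shift to the GRCh38.p14 gene table was within 1 kb of the shift at the other end of the gene, or of a neighbouring gene within 25 Mb, which for 5 genes was one of the packaged hg19 gene sample. This kept 57 of 59 genes and 58 starts, and ACACA, GFAP and the proximal start of ATF3 were left out. Distances to a start are therefore good to about 1 kb. Bands came from circlize 0.4.16, chromosome lengths from GenomeInfoDb 1.38.1 and the hg19 gene sample from GenomicFeatures 1.54.1. Tables and figures were made in R 4.3.3 and Python 3.11.15, with matplotlib 3.10.9, scipy 1.17.1, pandas 2.3.3 and numpy 2.4.6.

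Named genes are the members of the listed groups, the HOX clusters, the 5 regions of highest −log10 q and the 5 widest in each list, and the strongest present in 1 condition only. Some members count in their group and are not reported by name here. The members and lists were chosen with earlier results of these data known. Alternatives were other q limits, equal list lengths, the other selecting list, other overlap rules, other distances and raised segments left out, and, added after the data were seen, p from whole reads, a q limit in both lists with the overexpression list choosing, a minimum of 20 reads and places of high background left out.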

Additional observations from a re-analysis of the deposited data

How the results depend on the processing

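No paired analysis was possible because each condition has 1 H2A.Z library. Ratios are overexpression over control, and the cause of a change was not tested. The ratio of region number was 0.318 as deposited, 0.906 at a whole-read p of 1e-06 and 1.04 at 1e-04, against 0.541, and in the other 5 ways of counting it was 0.539 to 0.758. The ratio of median width was 1.058 as deposited, 0.889 at a q of 0.01, 0.808 at 1e-05, 0.722 at equal list length, and 0.688 and 0.755 at a whole-read p of 1e-04 and 1e-06, against 0.989. At regions found in both, the width ratio was 0.747 with the overexpression list choosing, 0.842 and 0.720 with a q of 0.05 in both (control and overexpression list choosing), and in the same order 0.874 and 0.841 at 20 or more reads, against 0.786. The height ratio there was 0.994 with the overexpression list choosing, 0.946 and 0.929 with a q of 0.05 in both, 0.894 by deposited fold, and 0.793 and 1.06 at 20 or more reads, against 0.852.

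The difference in the share with H2A.Zac, 12.9 percentage points, was 21.999 as deposited, 5.14 at a q of 0.01, -5.59 at 1e-05, -5.06 with equal H2A.Z list length and 17.8 with equal partner list length. For H3K27ac it was 8.55 points and turned to -8.87 at a q of 1e-05 and -3.34 with equal H2A.Z list length. For FLAG it was -3.48 points and turned to 8.36 as deposited and 0.809 with equal partner list length. For H3K4me1 it stayed above 0 under all 7 alternatives. The ratio of summit distance to H2A.Zac, 0.829, kept its direction under both alternatives. That to H3K4me1 turned from 1.05 to 0.980 at a q of 0.01, and that to FLAG turned from 0.989 to 1.04. The ratio of listed genes with H2A.Z was 0.833, and 1.11 with equal list length and 1.08 at a whole-read p of 1e-04. With a median of 10 and 13 summit reads, most single regions lie near the limit of calling, and 1 read can move a gene across it.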
